A study of Mus musculus with 6 samples.

Results

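The probes described here are those whose names begin with mmu-miR-297, miR-466, miR-467 or miR-669, with any letter, copy number and arm. There were 71 of them among 1900 mouse miRNA probes: 4 were named miR-297, 27 miR-466, 13 miR-467 and 27 miR-669. By arm, 30 names carried 5p, 29 carried 3p and 12 carried no arm. The samples were bone marrow-derived progenitor cells of adult male db/db mice, which are homozygous for the db allele of the leptin receptor gene and are used as a model of type 2 diabetes, and the same cells of adult male db/+ littermates from the same colony, which carry 1 copy of the allele. Marrow mononuclear cells were grown in an endothelial medium (EGM-2) for 4 days, then, after a wash that removed the cells not attached, for 3 days more, and 1 µg of total RNA of each of 3 samples per group was read on a one-colour (Cy5) array. Nothing in the labels ties a sample to an animal, so a p-value here measures spread among samples that may be technical.

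Most of these miRNAs are encoded in mouse as a long tandem cluster within an intron of Sfmbt2, an imprinted gene for a Polycomb group protein that is known from the placenta. Their hairpins fold from simple repeats, so that the mature strand of the 5′ arm is a UG repeat and that of the 3′ arm a CA repeat. A mature miRNA finds its targets mainly through its seed (bases 2 to 8), and many of these miRNAs share a seed or differ by a base. IRE1α, the endoplasmic reticulum stress sensor that splices the Xbp1 mRNA, is known to cleave other RNAs as well. The study of these samples is known for reporting miR-466 and miR-200 raised in diabetic progenitor cells with low IRE1α activity. It chose miR-466 on these samples, so the values below are not independent evidence for that report.

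The mature sequences show how alike the members rich in UG are, and the sequences of those that the results turn on follow, taken from the target column of the deposited scanner files, 5′ to 3′, with the seed in capitals.
miR-466j: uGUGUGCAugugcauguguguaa
miR-466m-5p: uGUGUGCAugugcauguguguau
miR-466h-5p: uGUGUGCAugugcuugugugua
miR-466a-5p: uAUGUGUGuguacauguacaua
miR-466p-5p: uAUGUGUGuguacauguacau
miR-466d-5p: uGUGUGUGcguacauguacaug
miR-466i-5p: uGUGUGUGugugugugugug
miR-669e-5p: uGUCUUGUgugugcauguucau
miR-297a-5p: aUGUAUGUgugcaugugcaugu
miR-467h: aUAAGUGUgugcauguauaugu
miR-467e-5p: aUAAGUGUgagcauguauaugu

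The members rich in CA hold the complementary repeat, and the examples below are the brightest probes and those with the most shared seed.
miR-466f-3p: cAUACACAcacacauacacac
miR-466h-3p: uACGCACGcacacacacac
miR-467b-3p: aUAUACAUacacacaccaacac
miR-467f: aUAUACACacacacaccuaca
miR-669c-3p: uACACACAcacacacaaguaaa
miR-669m-3p: aUAUACAUccacacaaacauau

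Each target was put in the class of its longer alternating run. The UG-rich class held 36 members, which were all 30 with a 5p name and 6 without an arm. The CA-rich class held 35 members, which were all 29 with a 3p name and 6 without an arm. This split was made after values of these data had been seen.

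Signal is the median brightness of a spot, given here after background correction and quantile normalization as a log2 intensity averaged over the 2 spots of a probe. Detection on an array meant a signal over the 95th percentile of its 4 blank spots, and the test took probes with detection on 3 or more of the 6 arrays. By this rule 1181 of all probes and 64 of the 71 members were tested, and 61 members were detected on all 6 arrays. The median signal of the members was 5.37, 8.52 and 7.13 times the median blank on the db/db arrays and 3.81, 6.79 and 2.95 times on the db/+ arrays. The blanks gave a low bar on db/db array 1 and db/+ array 3, where 1855 and 1701 of all probes exceeded it, against 751 to 1125 on the other 4 arrays. All 7 untested members, among them miR-466l-5p, miR-466n-3p and miR-467d-5p, exceeded it on those 2 arrays alone and read 0.547 to 1.25 times the median blank anywhere, so their signal was not told apart from empty spots.

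The members were among the brighter probes of the array. They took 19 of the 100 brightest places, or 19%, and 32 of the brightest 200, or 16%, while they made up 3.74% of all probes. Brightness differs between probes for reasons other than the amount of RNA, so these ranks describe spots and not amounts of miRNA. The brightest member was miR-466i-5p, an uninterrupted UG repeat of 20 bases, with a mean log2 intensity of 12.60 ± 0.15 on the db/db arrays and 12.59 ± 0.18 on the db/+ arrays (SD, n = 3 each). Next came the CA-rich probes miR-466f-3p, miR-466h-3p, miR-669p-3p and miR-467f.

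Among CA-rich members, brightness went with the length of the repeat. Over the 35 probes the longest alternating CA run, of 3 to 15 bases, had a Spearman correlation of 0.92 with the mean log2 intensity of the 6 arrays (Pearson 0.86). The 12 probes with runs of 3 to 6 bases had a median log2 intensity of 6.92, the 14 with runs of 7 to 9 bases 9.74, and the 9 with runs of 10 to 15 bases 11.48. Among the 36 UG-rich members the same correlation was 0.50 (Pearson 0.62), and it was 0.45 (Pearson 0.48) without miR-466i-5p. Here brightness did not rise throughout. The median was 7.01 for 11 probes with runs of 3 to 6 bases, 9.08 for 16 with runs of 7 to 8 and 8.03 for 9 with runs of 9 to 20. The points are probes of related sequence read on the same arrays, so the correlations are descriptions across probes.

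**Figure D1:**
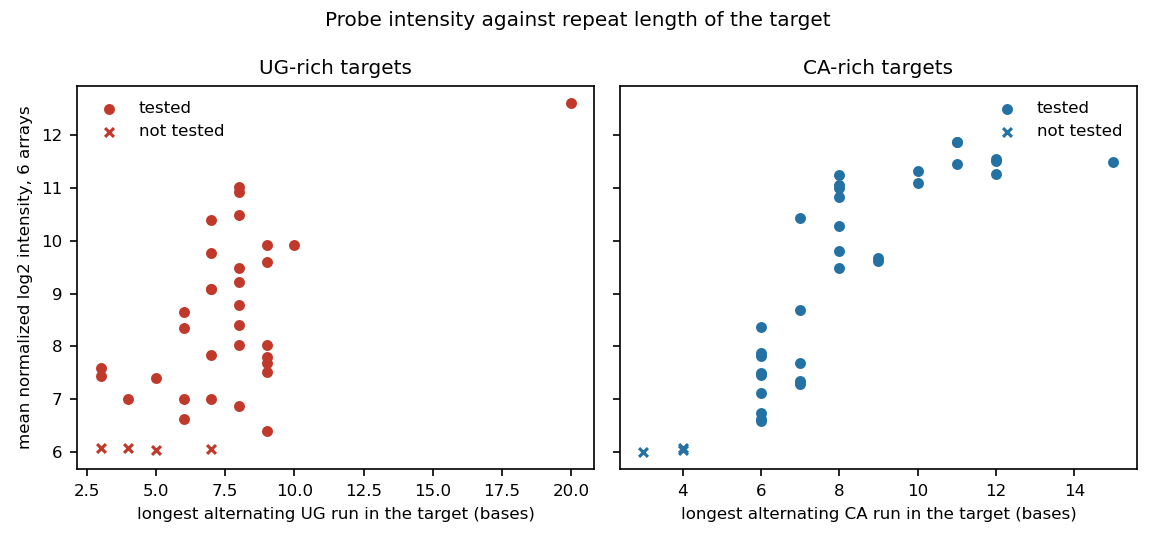
Mean normalized log2 intensity over the 6 arrays (vertical axis) against the longest alternating UG or CA run in the target, in bases (horizontal axis), 1 point per member probe, with crosses for the 7 untested ones. The CA-rich points climb from a median of 6.92 at runs of 3 to 6 bases to 11.48 at runs of 10 to 15 bases, and the UG-rich points scatter more widely.

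No member passed the test between db/db and db/+ cells. Of the 64 tested members 0 had a limma adjusted p under 0.05 (0% of all tested probes did), and the smallest adjusted p among them was 0.46. At an unadjusted p under 0.05, 8 members read higher in db/db cells, or 12.5%, beside 2.88% of all tested probes, and 0 read lower, beside 2.12%. Counted in either direction, these were 8 members and 59 of all tested probes, and the counts moved with single arrays. They were 4 members and 89 probes without db/db array 2, 4 and 21 without db/db array 3, 5 and 37 without db/+ array 1, 18 and 91 without db/+ array 2, and 3 and 42 without db/+ array 3. All 3 db/db arrays lay above all 3 db/+ arrays for 5 members, or 7.81%, beside 4.06% of all tested probes, and below them for 0 members, beside 5.59%. The log2 difference, db/db minus db/+, was above 0 for 48 of the 64 members, beside 45.6% of all tested probes. Its median was 0.14 over the members and -0.023 over all tested probes. The members are alike in sequence and are read on the same 6 arrays, so these counts are not counts of independent probes. Without db/+ array 3 the median over the members was -0.042.

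The larger positive differences lay in the UG-rich class. Its 32 tested members had a median log2 difference of 0.49, with 29 above 0 and 3 below, and 7 of the 8 members with an unadjusted p under 0.05 belonged to it. The 32 tested CA-rich members had a median of 0.021, with 19 above 0 and 13 below. Members without an arm in the name divided in the same way by sequence: the 5 tested UG-rich ones had a median of 0.49 and the 5 tested CA-rich ones 0.040. Of 19 hairpin names with both arms tested, the 5′ arm had the larger difference in 15. The median of the 5′ minus the 3′ difference was 0.44, with a range of -0.14 to 0.84. A name can stand for several genes. Every 5p name is UG-rich and every 3p name CA-rich, so this count is the same split and not a separate comparison. Within each class the numbers also differed. Among UG-rich probes the median was 0.61 for 14 miR-466 probes, 0.51 for 10 miR-669 probes, 0.45 for 3 miR-297 probes and -0.024 for 5 miR-467 probes. The 11 tested CA-rich miR-466 probes had a median of 0.13, with 8 above 0 and 3 below. Over all 25 tested miR-466 probes it was 0.24, with 22 above 0 and 3 below. The UG-rich median was 0.24 without db/db array 3 and 0.19 within the 3 arrays with bright spike-in controls, against 0.80 within the 3 with dim ones.

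**Figure D2:**
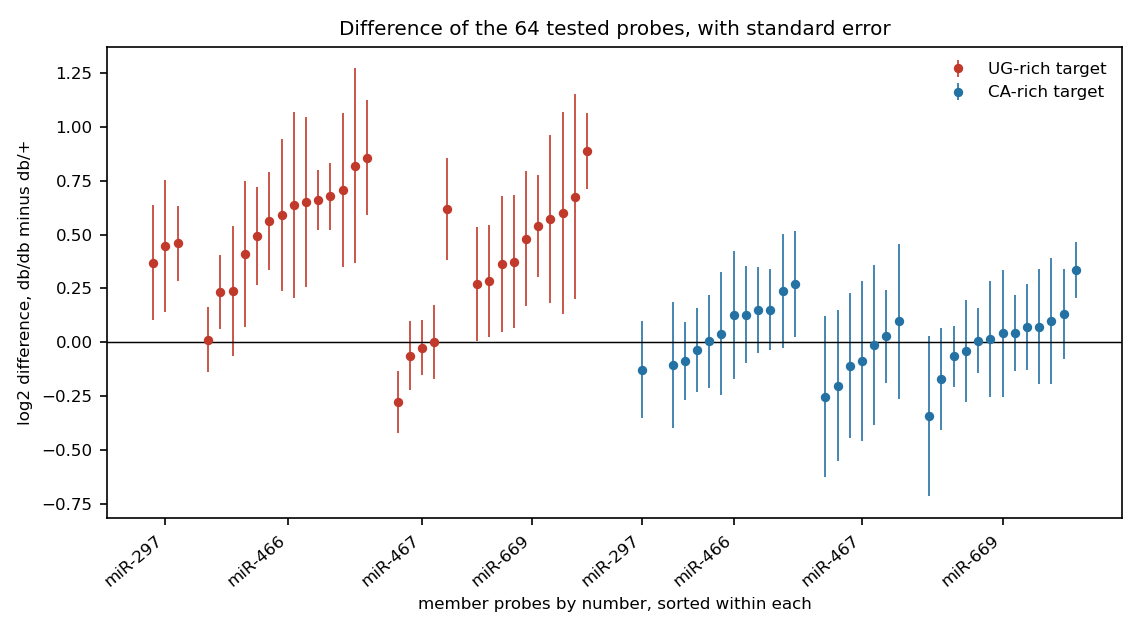
Log2 difference, db/db minus db/+, of the 64 tested member probes (vertical axis), each with its standard error from the limma fit, grouped by number and target class and sorted within each group (horizontal axis). The 14 UG-rich miR-466 and 10 UG-rich miR-669 probes all lie above 0, and the CA-rich probes lie on both sides of it, between -0.34 and 0.33.

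The UG-rich miR-466j, which carries no arm in its name and whose RefSeq position lies outside the Sfmbt2 cluster at chr10:60960802-60960824 on the plus strand (GRCm38.p6), had a small spread. It read 9.95, 10.28 and 10.04 on the db/db arrays, against 9.36, 9.55 and 9.37 on the db/+ arrays. The groups did not overlap, and the lowest db/db reading was above the highest db/+ reading. The log2 difference was 0.66 (standard error 0.14), at a limma adjusted p of 0.49 and an unadjusted p of 0.0021. The scale is compressed by the offset of 50 that was added before taking logs, which acts most on dim probes.

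The probe of miR-466h-5p, which shares its seed with miR-466j, read 9.30, 9.69 and 9.25 on the db/db arrays and 8.66, 8.78 and 8.78 on the db/+ arrays. The db/db readings were again all above the db/+ readings, which lay close together. The difference was 0.68 (standard error 0.15), at a limma adjusted p of 0.63.

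The largest difference of any member was that of miR-669e-5p, a 5′-arm miRNA of the Sfmbt2 cluster. It read 8.80, 8.89 and 8.85 on the db/db arrays and 7.71, 8.32 and 7.84 on the db/+ arrays. The db/db arrays agreed within 0.05 (SD, n = 3), and the db/+ arrays were lower and more spread, with an SD of 0.32 (n = 3). The log2 difference was 0.89 (standard error 0.18), a 1.85-fold ratio of normalized intensities, with a limma adjusted p of 0.46 and an unadjusted p of 0.0016. On the authors' deposited value table, a linear scale, miR-669e-5p stood at 395, 394 and 389 in db/db cells, against 134, 247 and 157 in db/+ cells. On the same table miR-466j stood at 964, 1136 and 1037 in db/db cells, against 533, 694 and 571 in db/+ cells. Both had groups that did not overlap there as well.

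Groups overlapped for miR-297a-5p, miR-466d-5p and miR-467h, which are UG-rich as well and had an unadjusted p under 0.05. The probe of miR-297a-5p read 8.32, 8.76 and 8.66 in db/db cells and 7.91, 8.32 and 8.13 in db/+ cells, with a difference of 0.46 and a standard error of 0.17. The probe of miR-466d-5p read 7.03, 7.21 and 7.20 in db/db cells and 6.45, 7.08 and 6.22 in db/+ cells, with a difference of 0.56 and a standard error of 0.23. Its signal was 1.16 and 1.21 times the median blank on db/+ arrays 1 and 3 and at most 2.49 times on any array. The size of its difference is therefore uncertain. Both miR-297a-5p and miR-466d-5p had their highest db/+ reading on array 2. The probe of miR-467h, placed by RefSeq at chr9:115381898-115381919 on the plus strand (GRCm38.p6), read 7.84, 8.31 and 8.28 in db/db cells and 7.16, 7.95 and 7.46 in db/+ cells, with a difference of 0.62 and a standard error of 0.24. The limma adjusted p of each of the 3 was 0.89.

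**Figure D3:**
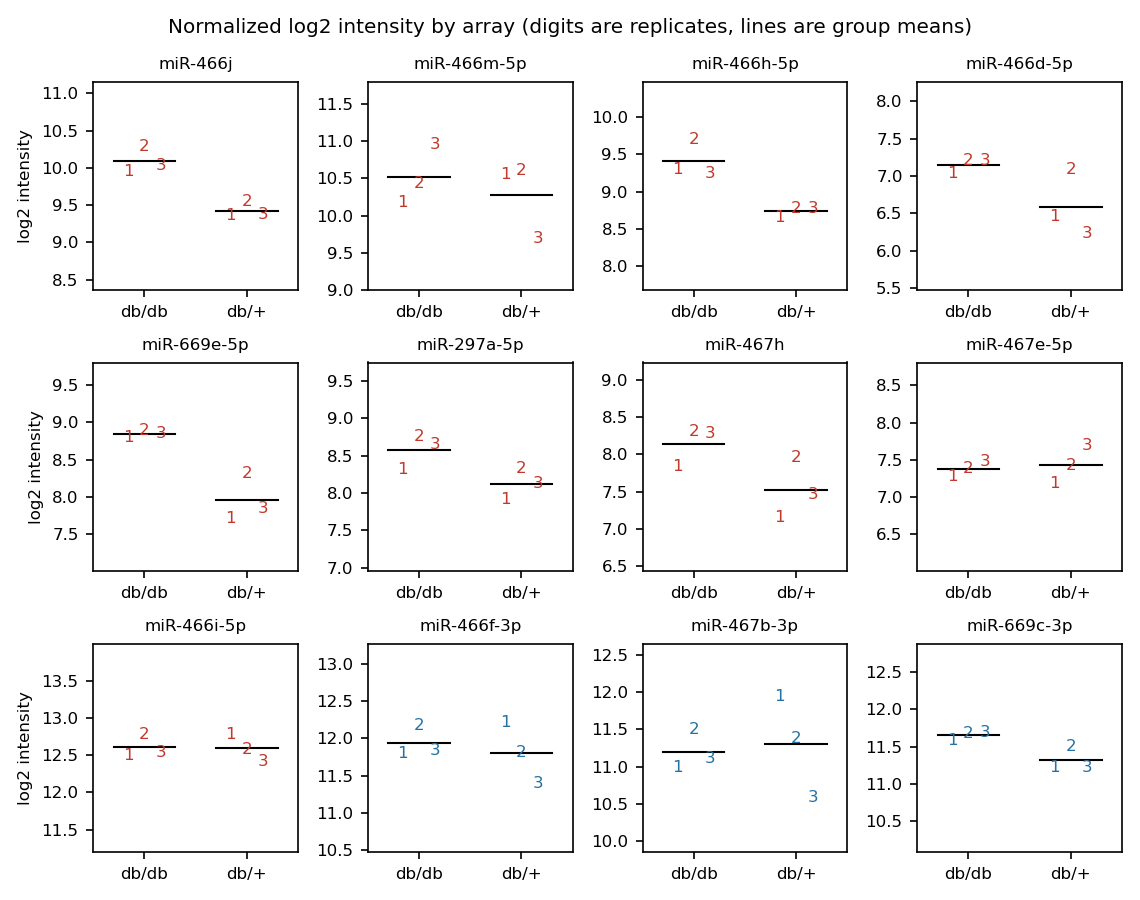
Normalized log2 intensity on each array (vertical axis, of the same span in every panel) of 12 members in db/db and db/+ cells, with digits for the replicate and a line for the group mean, red for UG-rich and blue for CA-rich targets. The groups are apart for miR-466j, miR-466h-5p, miR-669e-5p and miR-669c-3p and overlap in the other 8 panels.

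Other 5′-arm members had differences of the same size with wider spreads. The 3 miR-466 probes of the seed AUGUGUG had differences of 0.82 for miR-466a-5p, 0.65 for miR-466e-5p and 0.64 for miR-466p-5p, with standard errors of 0.45, 0.39 and 0.43. The probe of miR-669a-5p had a difference of 0.60 with a standard error of 0.47. In each of these 4 the highest reading was that of db/db array 3, and without that array the median of the UG-rich class was 0.24. The brightest miR-669 probe of the 5′ arm, miR-669c-5p, read 10.89, 11.05 and 11.52 in db/db cells and 11.19, 11.09 and 10.37 in db/+ cells. Its groups overlapped, with db/db array 3 highest and db/+ array 3 lowest. The probe of miR-669n, whose target differs from that of miR-669c-5p by 2 edits, read 10.70, 11.04 and 11.45 in db/db cells and 10.96, 11.05 and 10.33 in db/+ cells, in nearly the same order.

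The pure repeat miR-466i-5p stood apart from its class. It read 12.50, 12.77 and 12.54 in db/db cells and 12.78, 12.58 and 12.41 in db/+ cells. The groups overlapped, and the difference was 0.013 (standard error 0.15). Its reading of 71.5 to 149 times the median blank was the highest of any member.

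Among 3′-arm members, miR-669c-3p, with the longest CA run, was the only one with groups that did not overlap. It read 11.58, 11.68 and 11.68 in db/db cells and 11.22, 11.50 and 11.22 in db/+ cells. The difference was 0.33 (standard error 0.13), at a limma adjusted p of 0.89. The bright probe for miR-466f-3p read 11.80, 12.17 and 11.84 in db/db cells and 12.21, 11.81 and 11.40 in db/+ cells. Its groups overlapped, with the highest and the lowest reading both on db/+ arrays, and its difference was 0.13 (standard error 0.22). The probe of miR-466h-3p read 11.81, 12.18 and 11.61 in db/db cells and 12.22, 11.74 and 11.62 in db/+ cells. Its groups overlapped as well, and its difference was 0.0046 (standard error 0.22). The dimmer miR-466b-3p read 7.73, 8.26 and 8.06 in db/db cells and 7.90, 8.07 and 7.26 in db/+ cells, with a difference of 0.27 and a standard error of 0.24. Here db/+ array 3 alone lay below the db/db arrays. The probes of miR-466q and miR-669p-3p had overlapping groups and differences of 0.15 and 0.043, with standard errors of 0.20 and 0.18.

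The miR-467 probes other than miR-467h had differences near or below 0. All 5 miR-467 probes with a 3p name had a negative difference, between -0.25 and -0.011. The probe of miR-467b-3p read 10.99, 11.50 and 11.10 in db/db cells and 11.95, 11.38 and 10.59 in db/+ cells. The spread among the db/+ arrays, with an SD of 0.68 (n = 3), was larger than the difference of -0.11. Without db/+ array 1 its difference was 0.21. The probe of miR-467a-3p had the same order of arrays, with 9.78, 10.58 and 10.10 in db/db cells and 11.07, 10.50 and 9.65 in db/+ cells. Its difference of -0.25 (standard error 0.37) was 0.080 without db/+ array 1. The probe of miR-467f, placed by RefSeq at chr11:69635419-69635439 on the minus strand (GRCm38.p6), read 11.38, 11.81 and 11.37 in db/db cells and 11.78, 11.60 and 11.10 in db/+ cells. Its groups overlapped, with a difference of 0.028. The 5′-arm miR-467a-5p read 7.45, 7.40 and 7.52 in db/db cells and 7.50, 7.77 and 7.92 in db/+ cells. The highest db/db reading was just above the lowest db/+ reading, and the difference was -0.28 (standard error 0.14), at a limma adjusted p of 0.89.

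Within a class most members moved together from array to array. Each member was centred on its own mean, and the median over the UG-rich class was then -0.060, 0.062 and 0.54 on db/db arrays 1, 2 and 3 and -0.46, 0.20 and -0.49 on db/+ arrays 1, 2 and 3. Over the CA-rich class it was -0.20, 0.26 and 0.0026 on the db/db arrays and 0.31, 0.13 and -0.48 on the db/+ arrays. The classes therefore differed most on db/db array 3, where the UG-rich class was high, and on db/+ array 1, where the UG-rich class was low and the CA-rich class high. Both were low on db/+ array 3. Of 32 UG-rich members, 18 had their highest reading on db/db array 3 and 20 their lowest on db/+ array 1. Of 32 CA-rich members, 17 had their highest reading on db/+ array 1 and 25 their lowest on db/+ array 3.

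Over the 6 arrays a UG-rich member had a median Pearson correlation of 0.86 with the median of the other members of its class and of 0.17 with the CA-rich class. A CA-rich member had 0.91 with its own class and 0.16 with the UG-rich class. The correlation with the own class was over 0.8 for 19 of 32 UG-rich and 25 of 32 CA-rich members. The UG-rich miR-467a-5p and miR-467e-5p did not share their class pattern. They had -0.31 and 0.0087 with their own class and -0.59 and -0.70 with the CA-rich class. The correlation was higher with the own class for 29 of 32 UG-rich members, including miR-467a-5p and miR-467e-5p, and for 30 of 32 CA-rich members. The exceptions were miR-466i-5p, with -0.051 in its own class and 0.93 in the CA-rich class, and miR-466m-5p and miR-669c-5p, and among CA-rich members miR-669c-3p, with 0.22 in its own class and 0.87 in the UG-rich class, and miR-669l-3p. Thus the single member with the longest repeat in each class followed the other class, but those next in length did not. The CA-rich miR-466q, miR-467f and miR-669p-3p, with runs of 12 bases, had 0.94, 0.96 and 0.94 in their own class. The UG-rich member with a run of 10 bases had 0.97. These correlations have 6 points that share a normalization and are given as descriptions. The spike-in controls were bright on db/db array 2 and db/+ arrays 1 and 2 and dim on the other 3 arrays. What sets these array patterns was not tested.

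**Figure D4:**
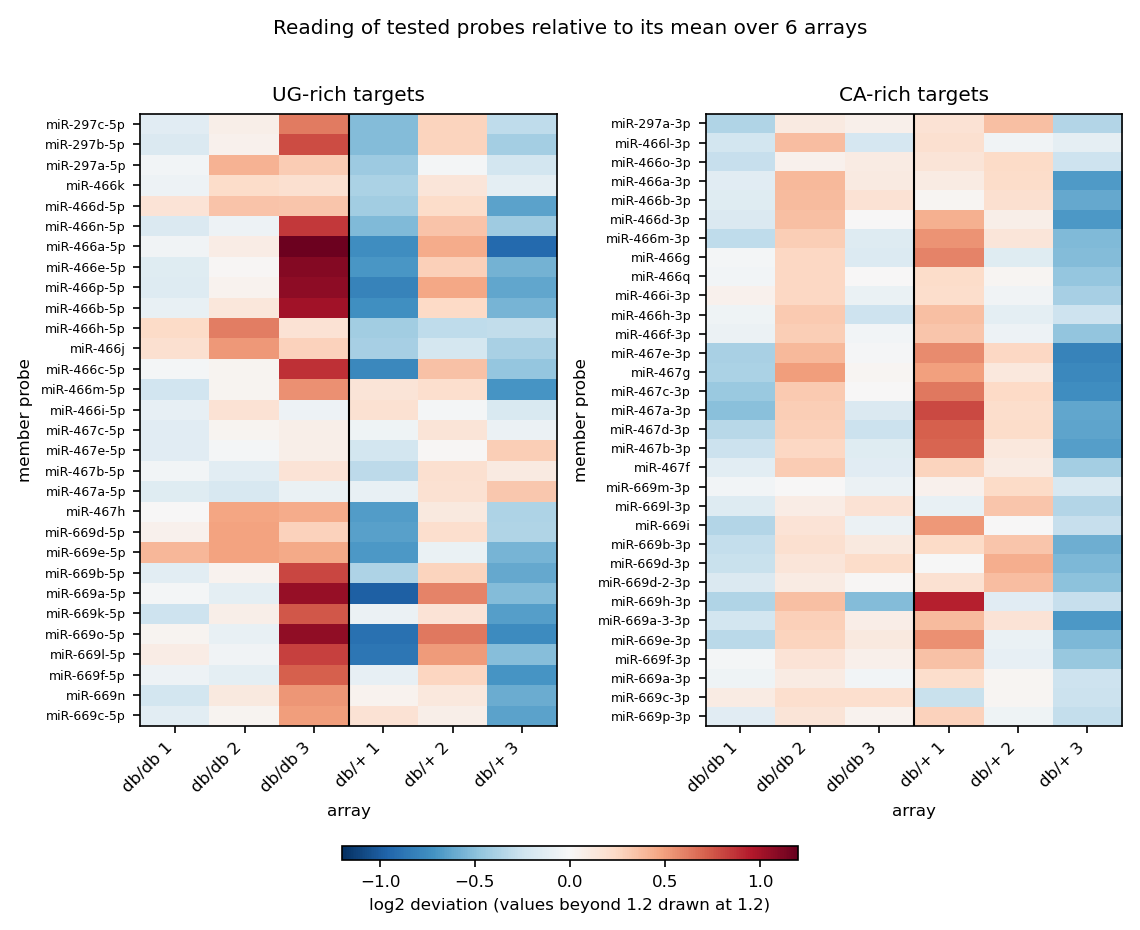
Log2 intensity of the tested members, all but 2 of the UG-rich ones, relative to the member's own mean over the 6 arrays (colour, red above and blue below), with arrays in columns, db/db left of db/+, and members in rows by number and brightness. In the UG-rich panel db/db array 3 is the reddest column and db/+ arrays 1 and 3 are blue, and in the CA-rich panel db/+ array 1 is red and db/+ array 3 blue.

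A finer division by sequence was made after the values had been seen. The 9 letters ugugcaugu, searched in the mature strand only, occurred in 17 of all 1900 targets, or 0.895%, and all 17 were members. All 17 were tested, with differences above 0 in each, a median of 0.57 and a range of 0.24 to 0.89, and 6 of them read higher at an unadjusted p under 0.05, beside 2.88% of all tested probes; with the letters chosen after the values, nothing is read from that count. The letters uguacaugu occurred in 8 targets, or 0.421%, all of them members, and the 7 tested had a median of 0.64 and a range of 0.23 to 0.82. Of these 7, 0 read higher at an unadjusted p under 0.05, beside 2.88% of all tested probes, and 5 were detected on all 6 arrays. They were dim, with a median log2 intensity of 7.52, and their median standard error was 0.36, against 0.27 for the 17 probes with ugugcaugu. The other 9 tested UG-rich members, which hold neither run, had a median of 0.013, with 6 above 0 and 3 below. Among these were the pure repeat miR-466i-5p and the tested UG-rich miR-467 probes other than miR-467h. The rest of the 9 were miR-297b-5p (0.45), miR-669n (0.28), miR-669c-5p (0.27) and miR-466d-5p. The difference of miR-466d-5p, 0.56, was the largest of the 9 but rests on db/+ readings near the blanks. These differences lay within the range of the ugugcaugu members, so the letters did not fully separate the values.

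Grouped by seed, the 71 members had 42 seeds, of which 27 occurred once and 8 were shared by 3 or more members. The seed GUGUGCA of miR-466h-5p, miR-466j and miR-466m-5p had a median difference of 0.66. The seed AUGUGUG of miR-466a-5p, miR-466e-5p and miR-466p-5p had a median of 0.65. The seed GUUGUGU of miR-669a-5p, miR-669f-5p and miR-669l-5p had 0.57, and the seed UGUAUGU of the 3 miR-297 probes of the 5′ arm had 0.45. The most widely shared seed, UAUACAU of 4 miR-467 and 3 miR-669 probes of the 3′ arm, had a median of -0.064 with 1 of 7 above 0. The seed GUGUGUG joined unlike values, with 0.56 for miR-466d-5p, 0.23 for miR-466k and 0.013 for miR-466i-5p. Of these, miR-466k read near the blanks, and so did miR-466d-5p on part of the db/+ arrays.

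Near-identical targets mostly gave similar differences. There were 46 pairs of members whose targets differed by at most 2 edits (substitutions, insertions or deletions), 15 of them by 1, and none joined a UG-rich with a CA-rich member. Over the 43 pairs in which both were tested, the differences lay apart by a median of 0.094. No such median is given for less similar pairs of the same class, so the closeness is not credited to near-identity. The pair miR-466a-5p and miR-466p-5p, at 1 edit, had differences of 0.82 and 0.64 and a correlation of 0.98 over the arrays. The levels of such pairs were less alike, apart by a median of 0.61 on the log2 scale and by up to 3.74. Whether a probe also reads its near-identical neighbours was not tested, and the members of such pairs are therefore uncertain as single miRNAs.

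A pair of exceptions, named after their values were seen, crossed this pattern. The probe of miR-466m-5p differs from miR-466j by 1 edit and shares its seed, yet it had a difference of 0.24 (standard error 0.30), against 0.66 for miR-466j, and the 2 probes correlated at 0.36 over the 6 arrays. The probe of miR-467e-5p differs from miR-467h by 1 edit, and its difference was -0.061 (standard error 0.16), against 0.62 for miR-467h, the widest gap of any pair, at 0.68. The letters ugugcaugu, chosen after the values, are in miR-467h and not in miR-467e-5p. Both miR-466j and miR-466m-5p hold them, so they do not separate that pair. The gaps between the members of a pair were not tested.

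The place of a member in the genome was read from RefSeq (GRCm38.p6), where 71 of 81 genes of these names lie inside Sfmbt2 on chromosome 2 and 10 lie elsewhere. By gene name, 57 member probes belong to genes inside Sfmbt2 alone, 9 to genes elsewhere alone and 5 to both. The tested members inside Sfmbt2 had a median difference of 0.11, which was 0.51 for 24 UG-rich and 0.0066 for 26 CA-rich probes. The 9 elsewhere had a median of 0.15, with all 9 above 0, which was 0.28 for 5 UG-rich and 0.12 for 4 CA-rich probes. The UG-rich median thus stood above the CA-rich median in both places. The pair miR-669n, at chr3:115979905-115979924 on the plus strand, and miR-669c-5p, in the Sfmbt2 cluster, had differences of 0.28 and 0.27.

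Probes outside the family with a run of 4 UG, ugugugug, were read as a comparison by sequence. There were 5, against 18 members, and all 5 had a positive difference, with a median of 0.24. The shown examples are as follows, with the seed in capitals.
miR-1187: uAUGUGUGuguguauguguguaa
miR-574-5p: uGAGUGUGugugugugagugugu

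The probe of miR-1187, encoded on chromosome 5, read 11.88, 11.95 and 11.83 in db/db cells and 11.49, 11.46 and 11.54 in db/+ cells. All db/db readings lay above all db/+ readings, with a difference of 0.39 (standard error 0.11), at a limma adjusted p of 0.89. The other 4 had overlapping groups and differences of 0.25 for miR-574-5p, 0.24 for miR-3082-5p, 0.22 for miR-32-3p and 0.20 for miR-672-5p. These values lie between the medians of the UG-rich and the CA-rich members, and their number allows no comparison with them.

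As a list of other miRNAs with a known tie to IRE1α, the reported IRE1α substrates miR-17, miR-34a, miR-96 and miR-125b were read on the same arrays. Of 9 probes 8 were tested, 0 passed, and 3 were above 0 and 5 below, with a median of -0.16. The difference was -0.26 for miR-125b-5p, -0.25 for miR-17-5p, -0.35 for miR-17-3p, 0.12 for miR-34a-5p and -0.085 for miR-96-5p. For miR-125b-5p and miR-17-3p all db/db readings lay below all db/+ readings, each at a limma adjusted p of 0.89.

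The cell type was checked by miRNAs used as cell type markers, not all of them limited to a single lineage, and none passed the test. The endothelial miR-126a-3p was bright on all 6 arrays, with a difference of -0.33, and miR-126a-5p was detected on 1 array. The stromal list (miR-199a, miR-214, miR-143 and miR-145a) had 7 of 8 probes below 0, and its summed linear level was 7352 to 12529 in db/db cells and 12839 to 16807 in db/+ cells. The myeloid list (miR-223, miR-511, miR-155 and miR-146a) had 5 of 6 tested probes below 0 and a summed level of 12223 to 16081 in db/db cells and 7022 to 15191 in db/+ cells. Its brightest probe, miR-223-3p, went the other way, with a difference of 0.56. All db/db readings lay below all db/+ readings for miR-146a-5p (-0.43), miR-223-5p (-0.44) and miR-511-3p (-0.66), each at a limma adjusted p of 0.89. The same held for the stromal miR-214-3p (-0.61), also at a limma adjusted p of 0.89. The lymphoid miR-150 probes were both below 0, and the erythroid miR-451a had -0.60. Of 11 probes for liver, muscle, neuron or pancreas miRNAs, 0 were detected on all 6 arrays. The pan-haematopoietic miR-142a-3p, with a difference of 0.92, read 8.12, 8.26 and 9.65 in db/db cells and 6.79, 8.54 and 7.94 in db/+ cells. It had its highest reading on db/db array 3, as 18 of 32 UG-rich members did, and its lowest on db/+ array 1, as 20 of 32 did. The probes of miR-142a-5p and miR-223-3p had their highest and lowest readings on the same arrays. In whole cultures, fewer cells of a type and less RNA per cell cannot be told apart, and the part of cell makeup in the differences of the members was not tested.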

How the data were processed

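Each of the 6 one-colour arrays had 3968 spots, 168 of them controls, and its scanner file holds a median linear intensity for each spot without a local background, per the file headers. A value table that the authors deposited, also of linear intensity and processed by a method not given in the sources used here, served as an alternative. All columns were matched to samples.

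Intensities were background-corrected with normexp (offset 50, on all spots), quantile-normalized over the miRNA spots and converted to log2, and the 2 spots of a probe were averaged, with limma 3.58.1 in R 4.3.3. Spot pairs of the members correlated between 0.992 and 0.999 on each array, array pairs between 0.93 and 0.98 over the tested probes. The comparison used lmFit and eBayes on all 1181 tested probes, with Benjamini-Hochberg adjustment at 0.05. The number of arrays limits the precision. Only the fit was tested on simulated data, drawn as normalized log2 values with noise independent between probes. Background correction, normalization and detection were not simulated, nor were array patterns shared by probes.

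Members and lists were chosen with earlier results of these data known. Members named with values were, by rule, the brightest and the smallest p of each number and arm, all with an unadjusted p under 0.05 and the 5 brightest, 21 in all, besides members of shared seeds; 2 members are counted but not reported singly here. Medians over members have no test. Target sequences come from the scanner files and positions from RefSeq. Alternatives covered normalization, offset, the deposited table, filter, variance model, array weights, the replicate number as a block and leaving out each array; the spike-in split was added after seeing the data. Plots were made in Python 3.11.15 with matplotlib 3.10.9.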

Additional observations from a re-analysis of the deposited data

How the results depend on the processing

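Among the 19 other settings in which probes were tested, members passing remained at 0 in each, while over all probes 1 passed with 75th percentile scaling, 1 with an offset of 16, 1 among probes detected on all 6 arrays and 2 with eBayes trend and robust, and 0 to 3 with an array left out (3 without db/db array 2). Same-numbered arrays of the groups did not deviate together (correlations of -0.043, -0.003 and 0.037), and with the replicate number as a block 0 probes and 0 members passed. Arrays of different number correlated between -0.36 (db/db array 1 with db/+ array 2) and 0.37 (db/db array 1 with db/+ array 3). At an unadjusted p under 0.05 in either direction, 8 members as reported were 5 with 75th percentile scaling, 5 among all-array probes, 4 with array weights and 0 with no normalization between arrays. The median of all tested probes was -0.059 with 75th percentile scaling, -0.049 with no normalization between arrays, -0.0048 on all-array probes and -0.0013 within the spike-dim arrays, and -0.033 to -0.0046 with an array left out. The UG-rich median was 0.19 within the spike-bright and 0.80 within the spike-dim arrays, that of all members 0.50 and that of miR-466 0.60 within the spike-dim arrays. With an array left out the medians ranged from -0.042 to 0.30 for all members, 0.030 (without db/+ array 3) to 0.41 for miR-466, 0.24 to 0.69 for the UG-rich and -0.20 to 0.19 for the CA-rich members.

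Of 21 named members 10 changed sign in some setting. Turned values were 0.021 (spike split as a block) and 0.20 (spike-dim arrays) for miR-297a-3p, 0.042 and 0.29 for miR-467a-3p, 0.15 and 0.46 for miR-467b-3p, and -0.083 within the spike-bright arrays for miR-669c-5p. With array weights they were -0.061 for miR-466h-3p, -0.036 for miR-466i-5p, -0.079 for miR-467f and -0.0054 for miR-669p-3p. With 75th percentile scaling miR-466h-3p had -0.0092 and miR-466i-5p -0.060; with no normalization miR-466i-5p had -0.049 and on the deposited table -0.0011. The cause was not tested. With an array left out the differences ranged over -0.33 to 0.024 for miR-297a-3p, -0.075 to 0.33 for miR-466f-3p, -0.15 to 0.19 for miR-466h-3p, -0.075 to 0.11 for miR-466i-5p, -0.043 to 0.30 for miR-466q, -0.63 to 0.080 for miR-467a-3p, -0.46 to 0.21 for miR-467b-3p, -0.17 to 0.17 for miR-467f and -0.091 to 0.19 for miR-669p-3p. The differences of miR-466j (0.56 to 0.83), miR-466h-5p (0.49 to 0.98) and miR-669e-5p (0.76 to 1.18) kept their sign in all 21 settings. All their db/db readings lay above all their db/+ readings. Leaving out an array or splitting by spike-in could therefore not turn these signs, and nothing is concluded from their keeping. Members within 1.25 times the median blank have no usable level.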
